A study of Mus musculus with 8 samples.

Results

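The NMDA receptor genes of the mouse hippocampus were followed across 8 arrays. The members were the 7 genes Grin1, Grin2a, Grin2b, Grin2c, Grin2d, Grin3a and Grina, matched on the gene name printed in the array files. They are 7 of the 24129 named genes on the array, are read by 11 of its 55681 probes, and all 11 were well above background on all 8 arrays. Grin3b, the remaining subunit gene, was not among the members and is described with the related genes.

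The RNA came from hippocampi of female C57BL6/J mice, 8 weeks old, which had lived for 4 weeks in an enriched environment, meaning cages with added objects and space. One group of 4 samples came from mice treated with anti-CD4, an antibody that binds helper T cells, and is labelled CD4 depleted. The other 4 came from mice given a control antibody. Both groups share the housing, and how far T cells were depleted was not measured here. The labels do not say whether each sample is a different animal, and the p-values therefore describe the spread among these 8 samples, part or all of which could be technical. The comparison asks how the hippocampal transcriptome differs between mice given these antibodies.

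NMDA receptors are glutamate-gated cation channels that admit calcium when glutamate binds while the membrane is depolarised, which releases a magnesium ion from the pore. Each receptor needs the GluN1 subunit (Grin1), which binds glycine or D-serine, together with glutamate-binding GluN2 subunits (Grin2a to Grin2d) or glycine-binding GluN3 subunits. In the hippocampus these receptors are known for starting long-term potentiation and depression, and GluN2A joins or replaces GluN2B in forebrain synapses after birth. Grina is not a channel subunit: despite its name it encodes a membrane protein of the TMBIM family, linked to calcium handling and cell survival.

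The probes decide which transcripts each value describes, so the pairs that read Grin1, Grin2a and Grin3a, and the single probe of Grin2c, are shown 5′ to 3′ as the array files list them. The Grin1 probe listed for transcript variant 1 and both the dimmer Grin2a and the dimmer Grin3a probe are given whole at 60 bases, and the others by their first 30 bases.
Grin1, dimmer probe: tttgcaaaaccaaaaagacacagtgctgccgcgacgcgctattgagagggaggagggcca
Grin1, brighter probe: aagagggctgagccttctcttctgtctgca
Grin2a, dimmer probe: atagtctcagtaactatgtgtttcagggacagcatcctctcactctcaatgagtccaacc
Grin2a, brighter probe: ggtaaacgttggatgtccaatagcacccta
Grin2c, only probe: attggttggaatttcttttcataggaacat
Grin3a, dimmer probe: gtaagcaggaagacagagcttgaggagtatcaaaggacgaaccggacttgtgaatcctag
Grin3a, brighter probe: agctgccagtcattttatgaaaatgaagtg
The longest run of letters shared by any 2 of the 11 member probes, on either strand, was 9 bases. Only exact runs between the probes were compared. Matches of a probe to the rest of another member's transcript were not tested. The share of G and C ran from 33.3% in the brighter Grin2b probe to 55.0% in both Grin1 probes. Probes differ in their response, so levels are compared between samples within a probe and not between genes. Where probes are averaged or one gene is set against another, only the change of that value between the groups is read.

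On the scale of log2 signal relative to the array's 75th percentile, no member passed the adjusted threshold (limma). Of the 7 genes, 1 had an unadjusted p under 0.05, Grin2c, which was lower. That is 14.3% of the members against 13.0% of the 23596 genes and unnamed probes tested, or 6.83% counting lower ones alone. At the adjusted threshold 0 of the 23596 were called, a share of 0%. The groups overlapped for every member, while they did not for 8.18% of all genes and unnamed probes tested. Of the members, 4 had higher and 3 had lower means after anti-CD4, against 51.8% higher and 48.2% lower over everything tested. The median difference was 0.0059 for the members and 0.0068 over everything tested. Counted by probe, 2 of 11 had an unadjusted p under 0.05, both lower (Grin2c and the dimmer Grin2a probe), against 13.0% of 29406 probes tested and 6.99% for lower probes alone, and 0 of 11 had groups that did not overlap, against 8.21%. In the plot of values by array, Grin2a and Grin2c have lower means in the anti-CD4 samples, Grin3a has a higher mean with a wide spread, and the rest lie level.

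**Figure D1:**
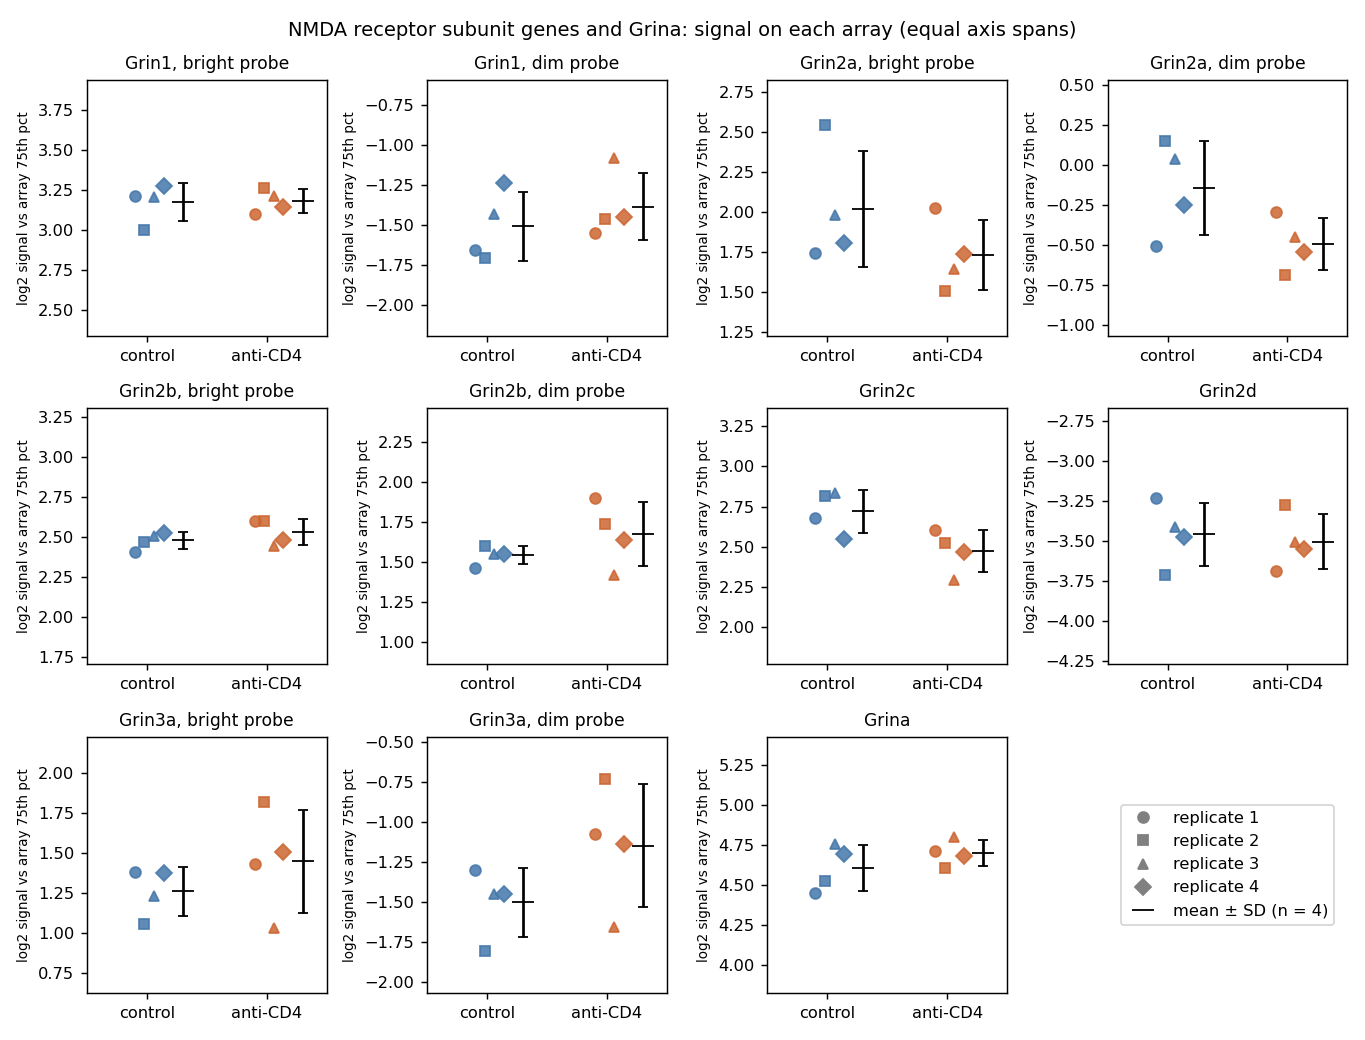
Each panel plots 1 probe of a member: the y axis is log2 processed signal relative to the array's 75th percentile over an equal span in every panel, points are single arrays of the control (blue) and anti-CD4 (orange) groups, marker shapes give the replicate number, and bars are the mean ± SD of 4 arrays. The groups overlap in each of the 11 panels, and control replicate 2 stands at 2.54 in the panel of the brighter Grin2a probe.

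All 8 arrays lay on 1 slide, with the anti-CD4 arrays and the controls in separate rows. The effect of the row cannot be told apart from that of the antibody. Control and anti-CD4 arrays of the same replicate number shared a slide column. The share of probes well above background ran from 51.1% to 54.3%, and no spot was saturated. Over all genes and unnamed probes tested, 3066 had an unadjusted p under 0.05, 1455 higher and 1611 lower. Centring each array on its median turned that to 2064 higher and 957 lower. Markers of dentate granule, CA1 and CA3 neurons were measured in 10 of 10, 7 of 7 and 5 of 6 genes; Iyd, of the CA3 list, was well above background on no array. The mean of 8 choroid plexus markers ran from -2.77 to 3.02 in controls and from -1.82 to 3.56 in anti-CD4 samples. That is a spread of several log2 units within both groups. All 8 markers had higher means in the anti-CD4 group, with a median difference of 1.22. The list averaged 0.44 in controls and 1.57 in anti-CD4 samples. Thalamus and habenula markers were higher in the anti-CD4 group in 8 of 8 genes, with list means of -0.05 to 0.25 in controls and 0.24 to 0.51 in anti-CD4 samples. Only 3 of 8 T lymphocyte markers were measured, with list means of 0.12 to 0.39 and 0.24 to 0.48, and Cd3d, Cd3g and Cd2 were well above background on no array.

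Grin1, the obligatory subunit, was level between the groups. Its brighter probe lies at chromosome 2, 25146927 to 25146986 (mm9, minus strand), and is listed for transcript variant 2 and 1 further RefSeq transcript. The 4 control arrays, by replicate number, read 3.208, 2.997, 3.206 and 3.275. The 4 anti-CD4 arrays read 3.097, 3.262, 3.212 and 3.138. The anti-CD4 values all fall inside the control range. The control mean was 3.17 ± 0.12 and the anti-CD4 mean 3.18 ± 0.07 (SD, n = 4 each), a difference of 0.01 with a 95% interval of -0.17 to 0.18 (adjusted p = 0.983, limma). On the linear scale the probe's own interval runs from 0.887-fold to 1.14-fold. It covers the difference between the groups of arrays, in which antibody and slide row cannot be told apart.

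The other Grin1 probe, at chromosome 2, 25147922 to 25147981, is listed for transcript variant 1 and starts 995 bases from the first. Grin1 transcripts differ by splicing of the exons that encode the carboxy-terminal tail, which governs trafficking and binding partners of GluN1. The variant 1 probe read -1.66, -1.71, -1.43 and -1.24 in controls and -1.55, -1.46, -1.08 and -1.45 in anti-CD4 samples. The highest value belongs to anti-CD4 replicate 3 and the other anti-CD4 values lie within the control range. The difference was 0.12 ± 0.136 (SE; adjusted p = 0.725 over 29406 probes, limma). It ran from 0.020 without anti-CD4 replicate 3 to 0.21 without control replicate 4. The probes of Grin1 moved together less closely over the 8 arrays than those of the other genes with a pair of probes (Pearson r = 0.603, exact permutation p = 0.113; Spearman rho = 0.619, p = 0.115; r = 0.238 without the 2 arrays farthest from the median). Whether the 4 correlations of probe pairs differ from each other was not tested.

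Grin2a encodes GluN2A, which gives receptors fast closing kinetics and dominates mature hippocampal synapses. Both of its probes had lower means in the anti-CD4 group, and neither passed the adjusted threshold. The brighter probe, at chromosome 16, 9577803 to 9577862 (mm9, minus strand), read 1.75, 2.54, 1.98 and 1.80 in controls and 2.03, 1.51, 1.64 and 1.74 in anti-CD4 samples. Control replicate 2 is far above the others, and 3 of 4 anti-CD4 values lie below every control. The difference was -0.29 ± 0.185 (SE), with a 95% interval of -0.71 to 0.13 (adjusted p = 0.533, limma). Its exact permutation p was 0.200, or 0.48 adjusted over the 7 members. Without control replicate 2 the difference of Grin2a was -0.11 (adjusted p = 0.769, limma), and its size thus rests in large part on that array.

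The dimmer Grin2a probe, at chromosome 16, 9579338 to 9579397, starts 1535 bases from the brighter one. It read -0.51, 0.15, 0.04 and -0.25 in controls and -0.30, -0.69, -0.45 and -0.55 in anti-CD4 samples. Here control replicates 2 and 3 are high, and control replicate 1 lies among the anti-CD4 values. The difference was -0.35 ± 0.150 (SE; unadjusted p = 0.0454, adjusted p = 0.375 over 29406 probes, limma), and -0.25 without control replicate 2. Over the 8 arrays the pair of Grin2a probes correlated at r = 0.880 (exact permutation p = 0.0016, adjusted over the 4 probe pairs 0.0031; rho = 0.857, p = 0.0107, adjusted 0.0214; r = 0.720 without the 2 arrays farthest from the median). Such agreement describes the RNA samples as measured and is not independent evidence of a group difference, since both probes read the same arrays.

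Grin2a values also moved with those of hippocampal marker genes over the arrays. The mean of 5 CA3 pyramidal neuron markers was 3.32 in control replicate 2, which has the highest Grin2a value, and 2.77 in anti-CD4 replicate 2, which has the lowest. In the other arrays it lay between 2.80 and 3.06. CA3 markers were lower in the anti-CD4 group in 4 of 5 genes. Their list means were 2.87 to 3.32 in controls and 2.77 to 2.98 in anti-CD4 samples. Grin2a was set against 12 marker lists, a comparison chosen after the data were seen, and the CA3 mean had the closest relation to the brighter Grin2a probe over the 8 arrays (r = 0.947, exact permutation p = 0.0016, adjusted over the 12 lists 0.0196; rho = 0.905, p = 0.0046, adjusted 0.0548). Leaving out the 2 arrays farthest from the median of the CA3 mean gave r = 0.696, and centring each group on its own mean gave r = 0.930. Dentate granule markers were lower in 8 of 10 genes, with list means of 0.13 to 0.51 in controls and -0.31 to 0.33 in anti-CD4 samples, and related to Grin2a at r = 0.75 (exact permutation p = 0.0306, adjusted 0.0931; rho = 0.714, p = 0.0576, adjusted 0.346; r = 0.764 without the 2 farthest arrays). The choroid plexus list (r = -0.715) and the thalamus and habenula list (r = -0.758) ran the other way, each with an adjusted exact permutation p of 0.0931. By rank these relations were weaker, with rho = -0.595 (exact permutation p = 0.132) and rho = -0.571 (p = 0.151), each adjusted to 0.365. In bulk RNA, fewer cells of a type and less RNA per cell cannot be told apart. The part of cell makeup in the Grin2a difference was not tested.

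**Figure D2:**
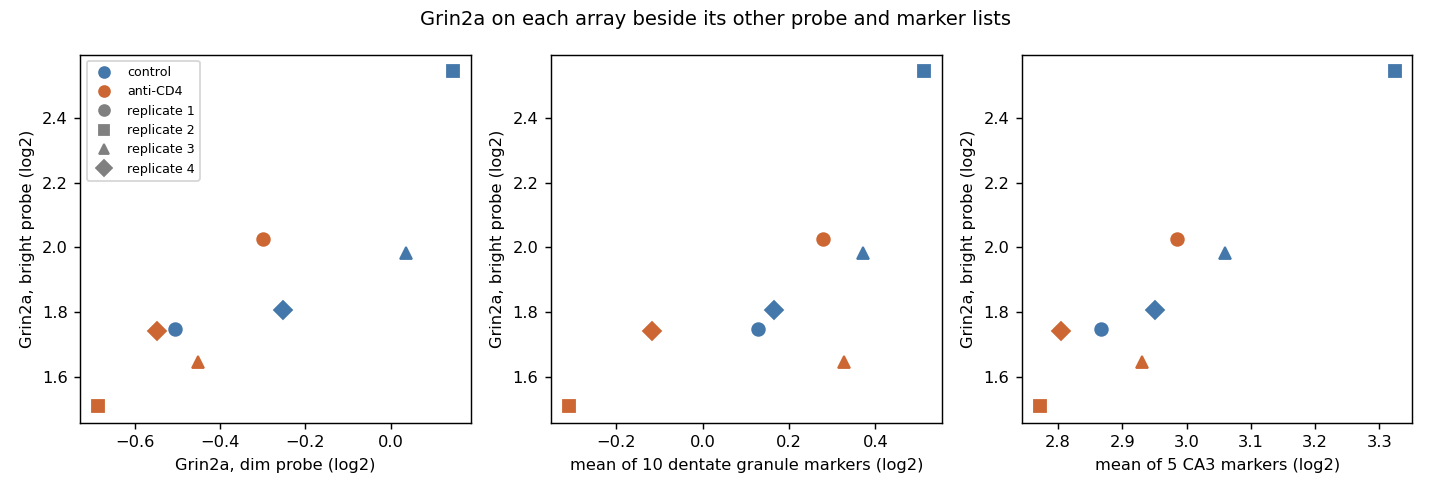
The y axis of each panel is the brighter Grin2a probe on 8 arrays (log2 relative to the 75th percentile), against the dimmer Grin2a probe, the mean of 10 dentate granule markers and the mean of 5 CA3 markers on the same log2 scale. Colours give the group and shapes the replicate number; control replicate 2 lies at the upper right and anti-CD4 replicate 2 at the lower left of all 3 panels.

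Grin2b encodes GluN2B, the slower-closing subunit that prevails early in development and stays abundant in adult forebrain. It varied least between controls among the members. Its brighter probe, at chromosome 6, 135680066 to 135680125 (mm9, minus strand), read 2.41, 2.47, 2.51 and 2.53 in controls and 2.60, 2.60, 2.44 and 2.48 in anti-CD4 samples. Anti-CD4 replicates 1 and 2 sit just above the controls and the other two lie inside their range. The difference was 0.05, with a 95% interval of -0.10 to 0.20 (adjusted p = 0.754, limma), and ran from 0.0084 to 0.093 over the 18 alternatives. The dimmer probe, at chromosome 6, 135681653 to 135681712, had control values from 1.46 to 1.598 and anti-CD4 values of 1.90, 1.74, 1.42 and 1.63. That difference was 0.13 ± 0.101 (SE; adjusted p = 0.596 over 29406 probes, limma), or 0.057 without anti-CD4 replicate 1 and 0.048 in the authors' deposited table. The probes correlated at r = 0.860 over the 8 arrays (exact permutation p = 0.0059, adjusted over the 4 pairs 0.0078; rho = 0.786, p = 0.0279, adjusted 0.0372; r = 0.577 without the 2 farthest arrays).

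Because GluN2A and GluN2B occupy the same place in the receptor, the difference between their log2 values was formed within each array, which removes the array's scaling. It read -0.66, 0.07, -0.53 and -0.72 in controls and -0.57, -1.09, -0.80 and -0.74 in anti-CD4 samples. Only 1 anti-CD4 value lies inside the control range, and control replicate 2 stands above the others. Relative to Grin2b, Grin2a changed by -0.34 from controls to the anti-CD4 group (exact permutation p = 0.143), and by -0.17 without control replicate 2 (p = 0.286). With the mean of each gene's probes in place of the brighter probe the change was -0.41 and the groups did not overlap (exact permutation p = 0.0286, the smallest that 4 against 4 arrays can give), so the call depends on which probe stands for the gene. The brighter-probe value measures how unequally the pair changed between the groups, which its test did not establish, and not their relative abundance.

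Grin2c encodes GluN2C, best known from cerebellar granule cells and also present in astrocytes and some thalamic and cortical neurons. Its single probe, at chromosome 11, 115110483 to 115110542 (mm9, minus strand), gave processed signals of 5893, 5962, 5279 and 4277 in controls and 4367, 4371, 3765 and 4026 in anti-CD4 samples. In log2 these were 2.68, 2.82, 2.84 and 2.55 against 2.60, 2.52, 2.29 and 2.46. Control replicate 4 is the lowest control, and anti-CD4 replicate 1 alone lies above it. Means were 2.72 ± 0.14 and 2.47 ± 0.13 (SD, n = 4), a difference of -0.25 with a 95% interval of -0.46 to -0.03, or 1.19-fold lower in the anti-CD4 group. The unadjusted p was 0.0278 and the adjusted p 0.331 (limma). The exact permutation p was 0.0571, or 0.4 adjusted over the 7 members. The difference kept its sign in all 18 alternative analyses, from -0.31 to -0.19, without passing the adjusted threshold in any. Astrocyte markers, measured in 8 of 8 genes, had list means of 3.78 to 3.86 in controls and 3.77 to 3.93 in anti-CD4 samples, while the thalamus list was higher in the anti-CD4 group; their part in the Grin2c values was not tested.

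Grin2d encodes GluN2D, which in the adult forebrain is found mainly in interneurons and confers very slow closing. Its probe, at chromosome 7, 53087859 to 53087918 (mm9, minus strand), gave processed signals from 64.7 to 98.3 in controls and from 55.9 to 78.8 in anti-CD4 samples. The log2 values were -3.23, -3.71, -3.41 and -3.48 against -3.69, -3.27, -3.51 and -3.55, so every anti-CD4 value falls inside the control range. The difference was -0.05, with a 95% interval of -0.32 to 0.23 (adjusted p = 0.894, limma), and its sign turned with normexp background correction (0.12) and in the authors' deposited table (0.094). Interneuron markers were measured in 8 of 8 genes, with list means of 3.82 to 4.03 in controls and 3.82 to 4.02 in anti-CD4 samples.

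Grin3a encodes GluN3A, a glycine-binding subunit that lowers calcium permeability and is known from the young brain and from some adult interneurons. Both probes had higher means in the anti-CD4 group with overlapping values. The brighter probe, at chromosome 4, 49674688 to 49674747 (mm9, minus strand), read 1.38, 1.06, 1.23 and 1.37 in controls and 1.43, 1.82, 1.03 and 1.51 in anti-CD4 samples. Anti-CD4 replicate 2 is the highest array and anti-CD4 replicate 3 the lowest, so this group spans the whole range of the controls. The difference was 0.19 ± 0.158 (SE; adjusted p = 0.633, limma), and 0.06 without anti-CD4 replicate 2 or 0.32 without anti-CD4 replicate 3. In the authors' deposited table it was 0.11.

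The dimmer Grin3a probe, at chromosome 4, 49678098 to 49678157, starts 3410 bases away and repeated that order closely. It read -1.30, -1.81, -1.45 and -1.45 in controls and -1.08, -0.73, -1.66 and -1.14 in anti-CD4 samples, a difference of 0.35 ± 0.191 (SE; adjusted p = 0.469 over 29406 probes, limma). With single arrays left out it ran from 0.21 (without anti-CD4 replicate 2) to 0.52, and it was 0.20 in the authors' deposited table. Anti-CD4 replicates 1, 2 and 4 lie above every control on this probe, and anti-CD4 replicate 3 below 3 of the 4. The pair of Grin3a probes had the highest correlation of the 4 pairs over the 8 arrays (r = 0.961, exact permutation p = 0.0004, adjusted 0.0015; rho = 0.929, p = 0.0022, adjusted 0.0089; r = 0.927 without the 2 farthest arrays). The wide spread in the anti-CD4 group was therefore seen by both probes.

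Grina, the TMBIM family gene, has 1 probe, at chromosome 15, 76079702 to 76079761 (mm9, plus strand), whose processed signals lay between 18482 and 21436. Its log2 values were 4.45, 4.52, 4.75 and 4.69 in controls and 4.71, 4.60, 4.801 and 4.68 in anti-CD4 samples. Only anti-CD4 replicate 3 lies above the controls. The difference was 0.10, with a 95% interval of -0.10 to 0.29 (adjusted p = 0.657, limma), and ran from 0.032 to 0.15 over the 18 alternatives.

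**Figure D3:**
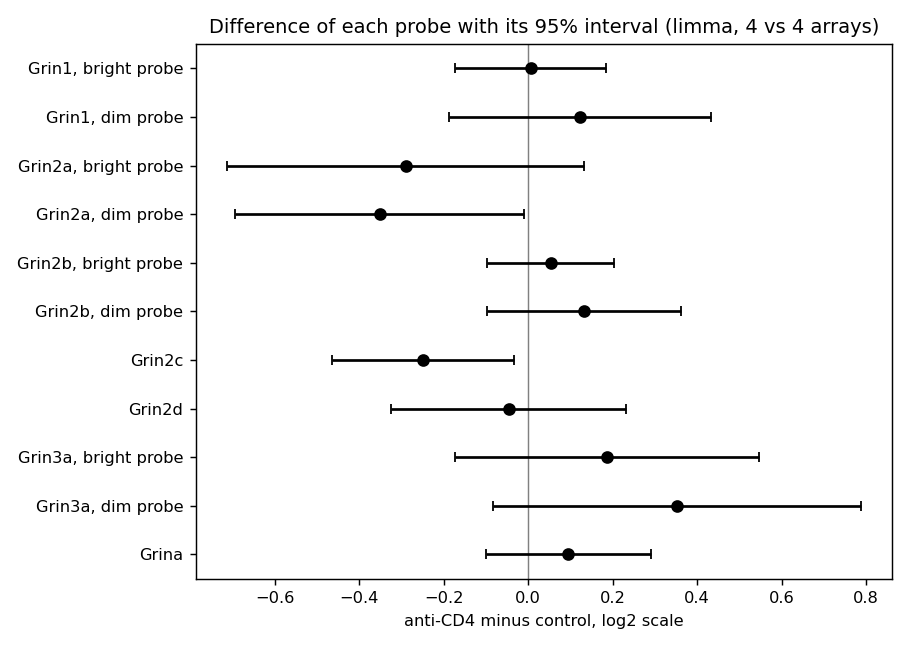
Points are the log2 difference of each member probe (anti-CD4 minus control, x axis), and bars its 95% interval from limma with 4 arrays a group. The intervals of Grin2c and the dimmer Grin2a probe lie below 0 before adjustment, and those of the other 9 probes include 0.

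Among the 21 pairs of members, none of the correlations over the 8 arrays passed adjustment. Grin1 and Grin2a ran most clearly in opposite directions (r = -0.844, exact permutation p = 0.0119, adjusted 0.242; rho = -0.667, p = 0.0831, adjusted 0.582). That relation rests on few arrays, since r was -0.23 without the 2 arrays whose Grin1 values lie farthest from the median. Grin1 and Grin2d ran in the same direction (r = 0.773, exact permutation p = 0.0230, adjusted 0.242). Their rho was 0.690 (exact permutation p = 0.0694, adjusted 0.582), and r was 0.379 without the 2 farthest arrays. Grin2a and Grin2d ran in opposite directions (r = -0.699, exact permutation p = 0.0467, adjusted 0.268). Their rho was -0.548 (exact permutation p = 0.171, adjusted 0.826), and r was -0.350 without the 2 farthest arrays. Grin2a and Grin2c ran in the same direction (r = 0.699, exact permutation p = 0.0511, adjusted 0.268; rho = 0.762, p = 0.0368, adjusted 0.582; r = 0.717 without the 2 farthest arrays).

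Of 14146 genes with characterised names, those whose values over the 8 arrays were most like Grin1 were Caskin2 (r = 0.979), Dhcr7 (r = 0.970) and Tsga8 (r = 0.965). For Grin2a they were Parp2 (r = 0.994), Cap1 (r = 0.988) and Mtch2 (r = 0.988), and for Grin2b Sh3tc1 (r = 0.953), Hpcal4 (r = 0.953) and Grm7 (r = 0.945). These are the highest of many correlations over few arrays and carry no p. None of these 9 genes passed the adjusted threshold between the groups, and their differences ran from -0.10 for Cap1 to 0.21 for Sh3tc1.

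The wider NMDA receptor pathway was read from 115 listed genes, of which 113 were measured, and 0 passed the adjusted threshold (limma). At an unadjusted p under 0.05 there were 22, 10 higher and 12 lower, which is 19.5% against 13.0% of all genes and unnamed probes tested (6.17% higher and 6.83% lower). The groups did not overlap for 14 of the 113, or 12.4% against 8.18%, with 5 higher and 9 lower (3.82% and 4.36% of everything tested). The lists were chosen with results of these data known, and these shares are a description. Their median difference was -0.0049, against 0.0068 over everything tested.

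Scaffold and anchoring genes, which tie the receptor to the postsynaptic density, were 10 higher and 11 lower of 21 measured, with a median of -0.01. Shank3, a master scaffold of excitatory synapses, read 2.78, 2.70, 2.74 and 2.77 in controls and 2.41, 2.38, 2.49 and 2.41 in anti-CD4 samples. Every anti-CD4 value lies below every control. The difference was -0.32 ± 0.0572 (SE; adjusted p = 0.177, limma), and -0.21 as the mean of its 2 tested probes (adjusted p = 0.605). Dlgap3, which links PSD-95 to Shank proteins, differed by -0.23 with separate groups, or by -0.15 with its probes averaged. Homer2 differed by 0.20, or by 0.019 with its 2 probes averaged, and Dlg4, which encodes PSD-95 and was chosen after its value was seen, by -0.12 (adjusted p = 0.343 and 0.666).

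Kinases and phosphatases that act on the receptor were likewise 10 higher and 11 lower of 21, with a median of -0.0049. Cdk5r1, the activator of the kinase Cdk5, read 5.20, 5.38, 5.42 and 5.40 in controls and 5.64, 5.61, 5.50 and 5.66 in anti-CD4 samples, which do not overlap. Its difference was 0.25 ± 0.0729 (SE; adjusted p = 0.255, limma). Ppp1ca, a catalytic subunit of protein phosphatase, differed by 0.17 and Csnk2a2, of casein kinase, by 0.15, with separate groups, and Ptk2b, a calcium-responsive tyrosine kinase that acts through Src, by -0.23. Camk2d, chosen after its value was seen, had the widest difference of the list at 0.95 ± 0.392 (SE; adjusted p = 0.359), with overlapping groups, while Camk2a, the main kinase of potentiation and likewise picked with its value in view, differed by -0.14 (adjusted p = 0.696).

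Genes of co-agonist supply were 5 higher and 6 lower of 11 measured, with differences between -0.09 and 0.15. Srr, which makes D-serine, differed by 0.10 (adjusted p = 0.564, limma), but by -0.040 with its probes averaged. Phgdh, the first enzyme of serine synthesis, differed by 0.08, the serine transporter gene Slc1a4 by 0.15 and Shmt2, which interconverts serine and glycine, by -0.09. Dao, which degrades D-serine, and the glycine transporter gene Slc6a5 did not pass the filter on dim probes.

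Trafficking and auxiliary genes were 11 higher and 10 lower of 21. Kif17, a motor that carries GluN2B along dendrites, read -0.31, -0.41, -0.21 and -0.38 in controls and 0.03, -0.11, -0.11 and -0.20 in anti-CD4 samples. The groups are separate by a narrow margin, and the difference was 0.23 (adjusted p = 0.278, limma) but -0.045 with its 3 tested probes averaged. Vps35, of the retromer that recycles receptors, differed by -0.15, and the endocytic adaptor genes Ap2a1 and Ap2b1 by -0.30 and -0.46 (adjusted p = 0.332, 0.342 and 0.510). The Ap2b1 value rests on control replicate 4, which read 1.80 against 0.46 to 0.84 in the other controls, and was -0.17 without it.

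Downstream signalling genes were 7 higher and 8 lower of 15. Cabp1, a neuronal calcium sensor, was separate between groups with a difference of -0.15, Rps6ka2 differed by 0.28 (0.16 with its probes averaged), and Nos1, the nitric oxide synthase coupled to the receptor, and its adaptor Nos1ap by 0.18 and -0.15 (adjusted p = 0.327, 0.346, 0.477 and 0.453, limma). Among 11 genes of glutamate release and clearance, the transporter gene Slc1a6 read 2.27, 2.39, 2.56 and 2.46 in controls and 2.76, 2.84, 2.65 and 2.84 in anti-CD4 samples, a difference of 0.35 ± 0.0819 (SE; adjusted p = 0.226, limma). Every anti-CD4 value was above every control. Slc1a1, the neuronal transporter, differed by -0.18 and Glud1, which feeds glutamate into metabolism, by -0.25, with separate groups on the probe used, and the astrocyte transporter gene Slc1a3 by 0.12. With its 2 tested probes averaged Glud1 differed by -0.073.

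In the related ionotropic families, kainate and delta receptor subunits were 4 higher and 3 lower of 7. Grik5 read 3.70, 3.69, 3.57 and 3.58 in controls and 3.36, 3.50, 3.42 and 3.33 in anti-CD4 samples, a difference of -0.23 with separate groups (adjusted p = 0.255, limma), or -0.13 in the authors' deposited table. Grik3, Grik1 and Grik2 differed by 0.37, 0.20 and -0.15 with overlapping groups. Grik3 was at 0.23 without control replicate 2. Grik1 ran from 0.091 without anti-CD4 replicate 2 to 0.32 without anti-CD4 replicate 3. Grik2 was at -0.31 with its 3 probes averaged and at -0.080 without control replicate 2. Grin3b, the sister of Grin3a, was well above background on 3 arrays of each group and differed by -0.52 ± 0.289 (SE; adjusted p = 0.473), or by -0.27 without control replicate 4, by -0.14 with normexp and by -0.14 in the authors' deposited table. In the TMBIM family, the 5 relatives of Grina were 3 higher and 2 lower: Faim2 differed by 0.21, Tmbim1 by 0.05, Tmbim4 by -0.09 and Ghitm by -0.12, and none passed the adjusted threshold.

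**Figure D4:**
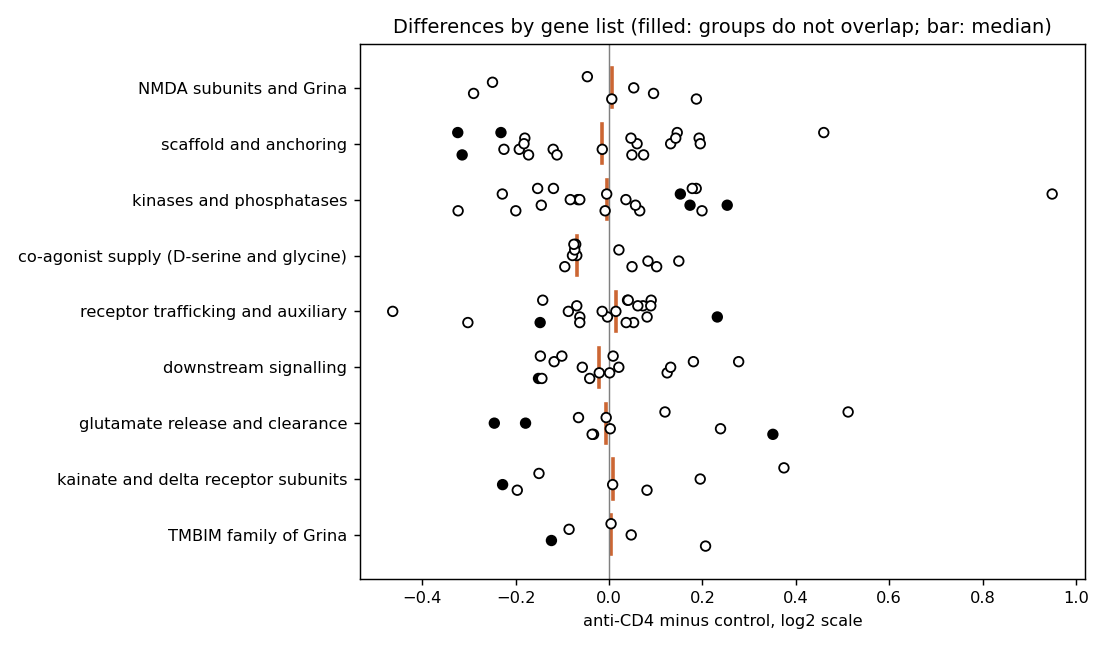
Points are single genes, with the log2 difference (anti-CD4 minus control) on the x axis and the gene list on the y axis; filled points have groups that do not overlap and the bar is the list's median. The 7 members have no filled point and the medians of the 9 lists lie between -0.07 and 0.01.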

How the data were processed

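Hippocampal total RNA, labelled with Cy3, was hybridised to one-colour Agilent arrays (design 028005). Per the file headers, the deposited spot values are intensity readings from Feature Extraction 10.7.3.1, and the processed signal used here had its background removed and was detrended on each array without scaling between arrays. The authors also deposited a table of log2 values of these probes, used as an alternative. The submitters' processing notes name limma; further steps were not stated in the labels.

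Control spots and outlier-flagged spots were dropped (0 of them from members) and spots of one probe averaged. Values are log2 processed signals less the 75th percentile of their array. Probes well above background on 4 or more of 8 arrays entered the tests, and the brightest such probe, by its mean over all arrays, stood for its gene. The two-sided test was limma's (lmFit, eBayes; limma 3.58.1, R 4.3.3), with Benjamini-Hochberg adjustment over 23596 genes and unnamed probes, or over 29406 probes, at a threshold of 0.05. Differences between groups of single values were tested by exact permutation (70 assignments, smallest p 0.0286). Data were simulated for this comparison (10 sets, 23596 genes and unnamed probes). The test found 80.6% of log2 changes of 1 and 44.5% of changes of 0.5. It called 0.029% of unchanged genes. The simulated noise was independent between genes, and only a small share of genes was changed, all upward. Changes below 0.5 were not simulated, so the rates do not cover differences of the size seen in the members. Names of non-members came from RefSeq (GRCm38.p6) where it held a match, and otherwise from the array files (1808 probes). Probe positions are on mm9, as the files give them. The number of arrays limits the precision.

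The members and gene lists were chosen with earlier results of these data known. All members and probes are described, the 4 genes of smallest unadjusted p in each pathway list (1 of them is not reported here), and the 3 named genes most correlated with Grin1, Grin2a and Grin2b. Other genes are marked as picked with their values in view, and the correlations among members, probes and marker lists were added after seeing the data. Alternatives changed the normalization, background correction, filter, probe choice, eBayes options, array weights, blocking by replicate number and the set of arrays.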

Additional observations from a re-analysis of the deposited data

Results flagged for a closer look

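In 90 groups of 4 values examined over the members' probes and the named pathway genes, 5 held a single array far from the other 3 by a gap test, or 5.56%, where chance gives about 1 in 20. None was a value of a member. For Cdk5r1 the low array was control replicate 1 at 5.199, where the remaining 3 gave 5.384 to 5.415. Csnk2a2 read 1.784 in control replicate 2, below 1.907 to 1.911 in the others. Shmt2 was at 0.0527 in anti-CD4 replicate 1, below 0.1538 to 0.1724. Grik2 was highest in anti-CD4 replicate 2 at -1.507, above -1.748 to -1.732, and Tmbim4 in anti-CD4 replicate 4 at 2.704, above 2.601 to 2.616.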

How the results depend on the processing

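No member and no pathway gene passed the adjusted threshold in any of the 18 alternatives, and no member probe in any of 17. Over all genes and unnamed probes tested, 2 passed with the authors' deposited table and 2 with trended and robust eBayes. With single arrays left out 0 to 11 passed (11 without anti-CD4 replicate 3). The 1 member with an unadjusted p under 0.05 became 0 with median centring and with the replicate block, and 0 to 1 with single arrays left out. Grin2a, Grin2b, Grin2c, Grin3a and Grina kept their sign throughout. Grin1 turned to -0.0092 with quantile normalization, -0.014 with normexp, -0.026 with the authors' deposited table and -0.027 with array weights, and ran from -0.052 to 0.040 with single arrays left out. Grin2d turned to 0.12 with normexp and 0.094 with the authors' deposited table, and ran from -0.13 to 0.029 with single arrays left out. With the mean of probes Srr was at -0.040 and Kif17 at -0.045. The change of Grin2a relative to Grin2b was -0.41 with the mean of probes (exact permutation p = 0.0286) and -0.43 to -0.17 with single arrays left out. Same-numbered arrays shared a slide column. Their samples deviated from their group means with correlations of -0.454, -0.288, -0.307 and 0.305, against -0.415 to 0.453 for samples with different numbers. These few values cannot decide whether the number pairs the samples. With the replicate block 2209 genes and unnamed probes had an unadjusted p under 0.05 against 3066. The Grin2a change relative to Grin2b, paired by replicate number, had an exact sign-flip p of 0.375, where 4 pairs cannot go below 0.125. Of the other pathway genes named, Slc1a4, Phgdh, Shmt2, Ap2a1, Nos1, Cabp1, Slc1a3, Tmbim1, Tmbim4 and Ghitm kept their sign but moved by over 1.5 times in at least 1 alternative.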
